A study of Mus musculus with 4 samples.

Results

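The genes described here are Hnrnpk, which was the target of the siRNA, its near-identical copy Gm7964, and the 4 genes of the poly(C)-binding protein family, Pcbp1, Pcbp2, Pcbp3 and Pcbp4. They were taken by symbol from a table of 22138 genes, and all 6 were found. The comparison asked how deep the knockdown of Hnrnpk was and whether its paralogs changed with it.

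RNA was sequenced from TT2, a line of female mouse embryonic stem cells from the strain C57BL/6xCBA, which were kept feeder-free in medium with serum and LIF, a factor that keeps such cells undifferentiated. The control group (n = 2) received control siRNA and the knockdown group (n = 2) received siRNA against Hnrnpk, and the groups carry no other genotype or treatment in the labels. Each culture was given siRNA at 100 nM and, 24 hours later, the same siRNA at 50 nM, and cells were harvested about 72 hours after the second dose. The series text calls the libraries of a group biological replicates. All libraries come from 1 cell line, so p-values cover only the spread between these samples of that line.

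hnRNP K and the PCBP proteins bind RNA and single-stranded DNA rich in cytosine through several KH domains, a fold of about the same shape in each of them. hnRNP K acts in transcription, splicing, RNA stability and translation, and in embryonic stem cells it has been linked to silencing by SETDB1, a histone H3 lysine 9 methyltransferase named in the title of the series. PCBP1 and PCBP2 are abundant in most cells and serve in RNA stability, translation and as iron chaperones, whereas PCBP3 and PCBP4 are less studied members. PCBP4 is known as a p53-responsive gene.

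Because RNA of one gene can be counted at another where their sequences match, the members were first compared base by base, using GENCODE M21 transcripts. Hnrnpk lies on chromosome 13 of GRCm38 from 58391142 to 58403343 on the minus strand, and its longest coding transcript has 2970 bases in 18 exons with 464 codons. Gm7964, annotated as a processed pseudogene, lies on chromosome 7 from 83755904 to 83757281 on the plus strand as 1 exon of 1378 bases. It aligned to 1377 bases of the Hnrnpk coding sequence with 10 substitutions and 1 inserted base. Counted from the Hnrnpk start codon, the substitutions were A569T, G598A, T675C, C719G, C815T, G844A, A879T, C1050T, A1287G and G1298A, with the Hnrnpk base first. The first 568 bases were identical, and no other pair of members shared an exact run longer than 33 bases. The stretch around the inserted base is shown because it ends the reading frame of the copy. The capital in Hnrnpk is the base of the substitution C719G and the capitals in Gm7964 are its first in-frame stop codon, at position 730, after 243 codons.
Hnrnpk, coding positions 685 to 743: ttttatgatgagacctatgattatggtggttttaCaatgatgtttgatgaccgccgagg
Gm7964, positions 685 to 744: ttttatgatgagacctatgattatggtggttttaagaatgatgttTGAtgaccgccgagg

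**Figure D1:**
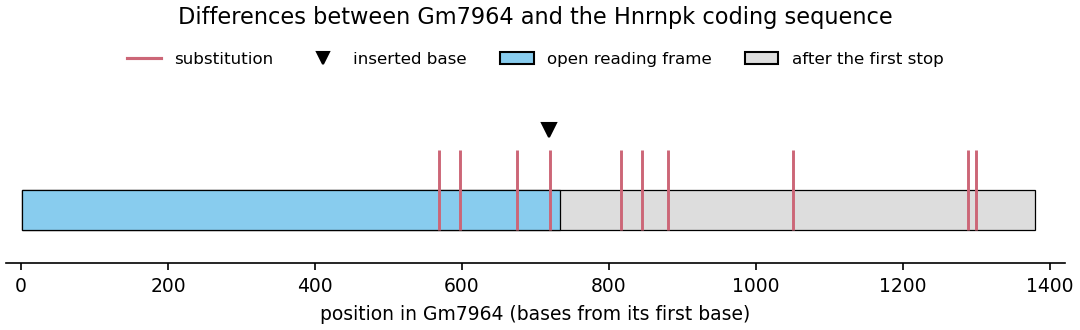
Map of Gm7964, with position in bases from its first base on the horizontal axis. The bar is blue up to the first in-frame stop and grey after it, vertical lines are the 10 substitutions against the Hnrnpk coding sequence and the triangle is the inserted base. No difference lies in the first 568 bases.

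The Pcbp genes are more distant from each other and from Hnrnpk. Pcbp1 (chromosome 6, 86524492 to 86526321, minus strand) has 1 exon and 356 codons, and Pcbp2 (chromosome 15, 102470539 to 102500061, plus strand) has 14 exons and 362 codons in its longest coding transcript. Their coding sequences were identical at 82.4% of aligned bases. Pcbp3 (chromosome 10, 76761857 to 76961887, minus strand) has 16 exons and 371 codons, Pcbp4 (chromosome 9, 106453291 to 106464012, plus strand) has 13 exons and 403 codons, and the pair was identical at 75.3%. Pcbp3 was closer to Pcbp2, at 77.8%, and was identical to Pcbp1 at 74.9%. Between Hnrnpk and the 4 Pcbp genes the identity was 67.5% to 68.6%, with no exact run above 12 bases. The longest exact runs of 2 pairs are shown in capitals with their surroundings, as the longest stretches over which a read could fit both genes without a mismatch. They are 33 bases for Pcbp1 and Pcbp2, the abundant members, and 19 bases for Pcbp3 and Pcbp4, the members called lower. Pcbp3 also shared a run of 20 bases with each of Pcbp1 and Pcbp2. Positions are counted from each start codon.
Pcbp1, 769 to 831: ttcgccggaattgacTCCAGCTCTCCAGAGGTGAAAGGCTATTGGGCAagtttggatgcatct
Pcbp2, 781 to 843: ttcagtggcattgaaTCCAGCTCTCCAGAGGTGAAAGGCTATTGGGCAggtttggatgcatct
Pcbp3, 385 to 447: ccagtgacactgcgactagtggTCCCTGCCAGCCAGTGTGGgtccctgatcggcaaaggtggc
Pcbp4, 301 to 363: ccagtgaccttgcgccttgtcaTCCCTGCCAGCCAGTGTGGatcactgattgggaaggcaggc

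Further processed pseudogenes matched members with an identity of 80% or above along 100 bases or longer, and were not analysed here. Of those like Hnrnpk, Gm4130 had the highest identity, 97.4% over 973 bases, and Gm6350 the longest match, 83.7% over 1359 bases. For Pcbp2 these were Gm8504, Gm12186, Gm6140 and Gm48305, at 81.7% to 89.7% in their longest match. The sources used here do not give the treatment of reads that fit several places.

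Values are RPKM, read numbers divided by gene length and by library size, as deposited, so levels are per length. Which length was used for each gene is not known, so comparisons and sums across genes depend on that choice. For Hnrnpk, all annotated exons cover 6466 bases and the longest coding transcript 2970, while for Pcbp1 both are 1830. The steps between low values put the libraries at relative depths of 1, 0.982, 0.891 and 0.882, where replicates 1 and 2 of the control come first and those of Hnrnpk siRNA follow. The absolute scale was estimated from single-exon genes with GENCODE M21 lengths, and its error is not known. On it, the least counted member in any library, Pcbp3 in Hnrnpk siRNA replicate 1, rested on about 3266 units. That number gives a counting error of 1.75%, or of 2.47% if the true number was 0.5 of it. The counting error was smaller for the other members and libraries. The groups were compared with limma on log2(RPKM + 0.5), a scale that understates changes of low genes, over the 12486 genes whose mean reached 0.5 RPKM. At a Benjamini-Hochberg adjusted p under 0.05, 67.2% of these genes were called, 32.2% higher and 35.0% lower, so that a call alone does not set a gene apart here. All 6 members passed the filter in both groups. Of them, 4 were called, all lower, and in 5 of 6 the libraries of the groups did not overlap, which held for 84.7% of all genes tested.

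Hnrnpk, the targeted gene, fell to about 30% of its control level in both knockdown libraries. Its level was 236 and 226 RPKM after control siRNA, against 68.0 and 70.5 RPKM after Hnrnpk siRNA. The groups lay far apart, and the replicates of each group lay close together. The means were 231 ± 6.69 RPKM (SD, n = 2) and 69.2 ± 1.78 RPKM (SD, n = 2). Against the control mean, 29.4% and 30.5% of the level remained in the Hnrnpk siRNA libraries, 30.0% on average. The log2 change was -1.73 (SE 0.0629, 95% interval -1.87 to -1.59, limma adjusted p = 6.59e-08), in the direction of the labels. Only 0.256% of all genes tested had a lower log2 change, while a fall of at least 1 on that scale was called for 4.52% of them. The interval corresponds to a fold of 0.273 to 0.332 on the RPKM + 0.5 scale. After the knockdown Hnrnpk was still an abundant transcript. Its level lay at the 98.4th percentile of all genes tested in the control group and at the 90.7th in the knockdown group. In these bulk samples, fewer cells with Hnrnpk RNA and less Hnrnpk RNA per cell cannot be told apart, and the protein was not measured in these data.

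**Figure D2:**
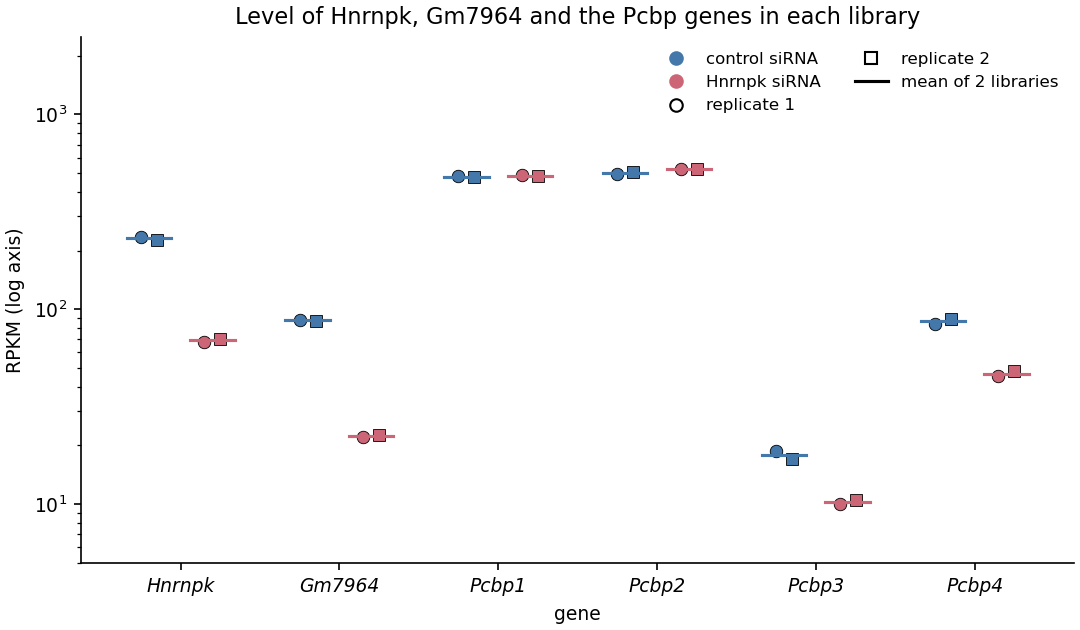
Level of each member in every library. The vertical axis is RPKM on a log scale, points are libraries (circles replicate 1, squares replicate 2) and horizontal lines are means of 2 libraries. Hnrnpk, Gm7964, Pcbp3 and Pcbp4 sit lower in both Hnrnpk siRNA libraries, while Pcbp1 and Pcbp2 stay near 500 RPKM.

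The copy Gm7964 fell as well. It was listed at 88.4 and 87.1 RPKM after control siRNA and at 22.1 and 22.8 RPKM after Hnrnpk siRNA. Again the groups lay far apart. The means of 87.7 ± 0.915 RPKM (SD, n = 2) and 22.4 ± 0.457 RPKM (SD, n = 2) left 25.6% of the control level. Gm7964 fell by 1.94 on the log2 scale (SE 0.0604, 95% interval -2.08 to -1.81, limma adjusted p = 3.08e-08). Relative to Hnrnpk, its value was 0.375 and 0.385 after control siRNA, against 0.325 and 0.323 after Hnrnpk siRNA. That ratio was therefore lower in both knockdown libraries, with means of 0.380 ± 0.00704 (SD, n = 2) and 0.324 ± 0.00175 (SD, n = 2). An exact two-sided permutation test gave p = 0.333, the smallest that 2 libraries against 2 can give. RNA made at Gm7964 and Hnrnpk RNA counted there cannot be told apart from these values.

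The depth of the knockdown depended little on how the 2 loci were joined. Adding both loci in proportion to their exonic length, 6466 bases for Hnrnpk and 1378 bases for Gm7964, gave a ratio of 0.296 between knockdown and control. A plain sum of their RPKM gave 0.288. In 14 other settings for the processing, which included leaving out each library, the log2 change of Hnrnpk ran from -1.83 to -1.70 and that of Gm7964 from -2.05 to -1.92. All of these were called, with limma adjusted p of at most 0.000438.

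Pcbp1, an intronless gene and one of the most abundant members, showed no change that could be detected. The controls had 484 and 475 RPKM, the knockdown libraries had 486 and 480 RPKM, and the groups overlapped. The log2 change was 0.01 (SE 0.0683, 95% interval -0.14 to 0.16, limma adjusted p = 0.898), with a sign that turned under quantile normalization, under rescaling of each library to the same sum and without control replicate 2. This interval spans 0.906-fold to 1.12-fold.

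Pcbp2 was slightly higher in both knockdown libraries, within the error of the test. It was listed at 496 and 504 RPKM after control siRNA and at 525 and 524 RPKM after Hnrnpk siRNA. The groups did not overlap, and the means differed by 24.7 RPKM, 500 ± 5.06 RPKM (SD, n = 2) against 525 ± 0.649 RPKM (SD, n = 2). The log2 change was 0.07 (SE 0.0686, 95% interval -0.08 to 0.22, limma adjusted p = 0.39), and its sign turned under quantile normalization, rescaling to the same sum and removal of the trend with GC content. A rise of Pcbp2 above 1.17-fold lies outside the interval. Neither Pcbp1 nor Pcbp2 was called in any of the 14 settings, where limma adjusted p ran from 0.0819 to 0.985 for Pcbp1 and from 0.29 to 0.814 for Pcbp2. Small changes could be missed. On simulated data with the same number of libraries, 22% of genes changed by 0.25 on the log2 scale were called and 96% of those changed by 0.5. Far fewer genes were changed there than were called here, which makes the adjustment stricter, so these shares are not those of the present test.

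Pcbp3, the least abundant member, fell. The controls had 18.8 and 17.1 RPKM, against 10.1 and 10.5 RPKM in the knockdown libraries. Both knockdown libraries were below both controls, and the controls were further apart from each other than the knockdown libraries were. The means were 17.9 ± 1.21 RPKM (SD, n = 2) and 10.3 ± 0.285 RPKM (SD, n = 2), a loss of 42.8%. The log2 change was -0.78 (SE 0.0738, 95% interval -0.94 to -0.61, limma adjusted p = 1.49e-05).

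Pcbp4 fell by a similar amount from a higher level. Its values were 83.8 and 89.5 RPKM after control siRNA and 45.2 and 48.0 RPKM after Hnrnpk siRNA. The groups were well separated. The means of 86.6 ± 4.06 RPKM (SD, n = 2) and 46.6 ± 2.01 RPKM (SD, n = 2) differed by 46.2% of the control level, with a log2 change of -0.89 (SE 0.0662, 95% interval -1.04 to -0.74, limma adjusted p = 3.35e-06). Among all genes tested, 6.28% had a lower log2 change than Pcbp4 and 8.65% a lower one than Pcbp3, so falls of this size were not rare in these cells. Both genes were called lower in all 14 settings, with log2 changes from -0.88 to -0.71 for Pcbp3 and from -0.98 to -0.68 for Pcbp4. The pair kept its proportion: Pcbp4 over Pcbp3 gave ratios of 4.46 and 5.24 after control siRNA, against 4.49 and 4.59 after the knockdown, and these overlapped.

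**Figure D3:**
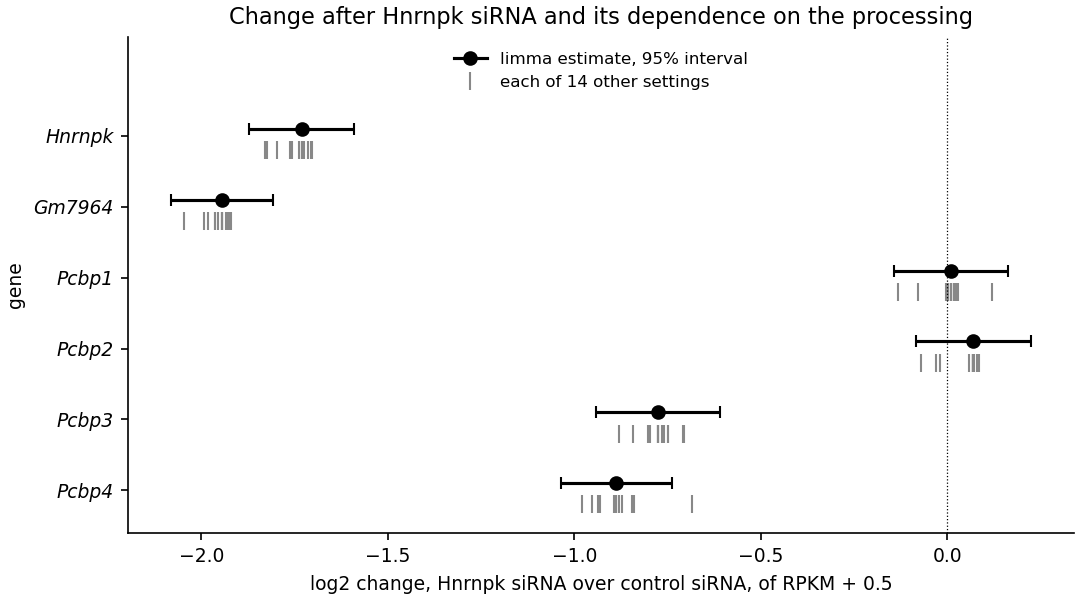
Log2 change of each member, Hnrnpk siRNA over control siRNA, on the horizontal axis. Black points and bars are the limma estimate with its 95% interval, and grey ticks are the 14 other settings. The intervals of Hnrnpk, Gm7964, Pcbp3 and Pcbp4 lie below 0, and those of Pcbp1 and Pcbp2 span 0.

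With the gene lengths used, the order of levels was kept except for Gm7964 and Pcbp4. In the control group the members ranked Pcbp2, Pcbp1, Hnrnpk, Gm7964, Pcbp4 and Pcbp3 from the highest mean. Pcbp2 and Pcbp1, as well as Gm7964 and Pcbp4, were neighbours at similar levels, and in control replicate 2 Pcbp4 was listed above Gm7964. After Hnrnpk siRNA, Hnrnpk was still the third, now closer to Pcbp4, and Gm7964 lay between Pcbp4 and Pcbp3. Among 64 KH-domain and hnRNP genes including these 5 coding genes, Hnrnpk went from rank 8 to rank 22 and Pcbp4 from rank 20 to rank 28. Pcbp2 was at rank 3 and then 2, and Pcbp1 was at rank 4 in both groups.

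The summed level of the 5 protein-coding genes was lower after Hnrnpk siRNA. It came to 1318 and 1312 RPKM after control siRNA, against 1134 and 1133 RPKM after Hnrnpk siRNA. The difference of the means was -181 RPKM, or -13.8%, and was large against the spread between replicates, with SDs of 4.89 and 0.497 RPKM. Under quantile normalization it was -21.1% and after rescaling to the same sum -18.9%. The exact two-sided permutation test gave p = 0.333, the smallest this design allows. Hnrnpk itself accounted for a difference of -162 RPKM and Pcbp4 for one of -40.0 RPKM. Pcbp3 added -7.68 RPKM, Pcbp1 3.58 RPKM and Pcbp2 24.7 RPKM. Set against the loss of Hnrnpk, the higher means of Pcbp1 and Pcbp2 together, neither of which passed the test, amounted to 17.5% of it. That share, like the summed level itself, holds for the values as deposited and rests on the gene lengths used. Under quantile normalization the log2 changes of Pcbp1 and Pcbp2 were -0.13 and -0.07, and after rescaling to the same sum they were -0.078 and -0.019. Neither gene was higher under those scalings, while under median-ratio scaling the log2 changes were 0.028 and 0.086.

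Without Hnrnpk, the sum over the 4 Pcbp genes was 1083 and 1085 RPKM after control siRNA, against 1066 and 1063 RPKM after Hnrnpk siRNA. The difference was -1.79%, with an exact permutation p = 0.333. The summed Pcbp level was thus not higher in any knockdown library than in a control library. Under median-ratio scaling this difference was -0.634%, with p = 0.667 by the same exact test, and under quantile normalization it was -10.5%.

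The makeup of the summed level changed accordingly. Hnrnpk took 17.9% and 17.3% of it in the controls, against 5.99% and 6.22% in the knockdown libraries. The share of Pcbp2 was 37.6% and 38.4% and then 46.3% and 46.2%, and that of Pcbp1 was 36.7% and 36.2% and then 42.8% and 42.4%. The shares of Pcbp1 and Pcbp2 were larger out of a smaller sum, and neither gene's own level was called. The summed RPKM of Pcbp1 and Pcbp2 was 4.16 and 4.32 times that of Hnrnpk in the controls and 14.9 and 14.2 times after the knockdown. These ratios, like the shares, rest on the gene lengths used and leave out any Hnrnpk RNA counted at its copies.

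**Figure D4:**
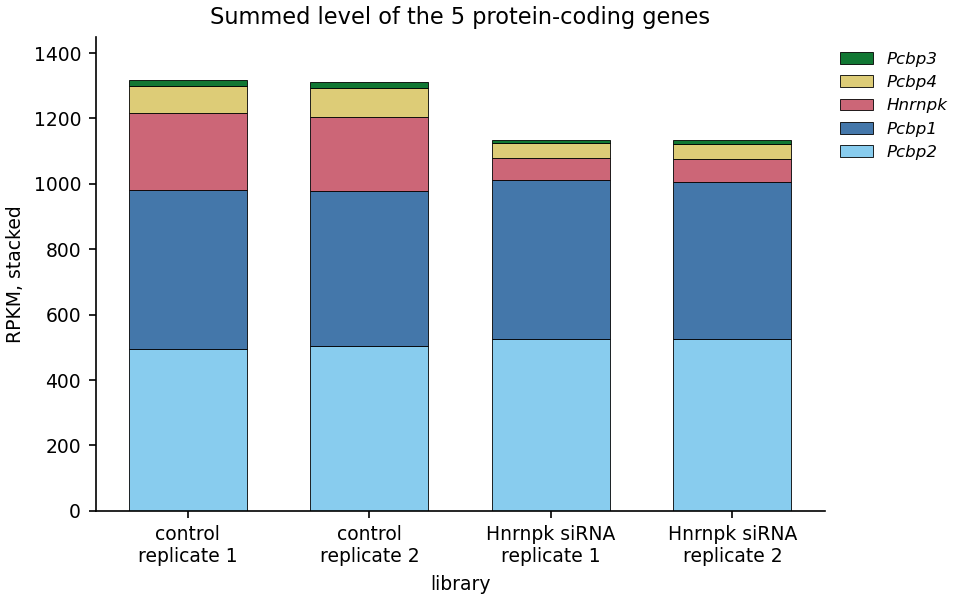
Stacked RPKM of the 5 protein-coding genes in each library, on a linear axis that starts at 0. The bars reach 1318 and 1312 RPKM after control siRNA and 1134 and 1133 RPKM after Hnrnpk siRNA, and the Pcbp1 and Pcbp2 blocks are of about equal height in all libraries.

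Genes that overlap or neighbour the members were examined by position, because the sources used here do not give the strand of the libraries. Rmi1, a DNA repair gene that overlaps Hnrnpk on the other strand and shares 122 bases with its transcript, was at 13.2 ± 1.11 RPKM (SD, n = 2) and 14.6 ± 0.427 RPKM (SD, n = 2), a log2 change of 0.14 (limma adjusted p = 0.14). The gene 2210016F16Rik, 5917 bases from Hnrnpk, was called higher by 0.18 on the log2 scale (limma adjusted p = 0.0485). Neither fell with Hnrnpk. Map3k12, a kinase gene on the other strand, shares 1576 bases with the longest coding transcript of Pcbp2 but was listed at only 3.39 and 3.28 RPKM in the means of the groups (log2 change -0.04, limma adjusted p = 0.704), and Prr13 near Pcbp2 had a log2 change of 0.11 (limma adjusted p = 0.163). Beside Pcbp4, Abhd14a fell from 29.9 ± 0.923 to 21.04 ± 1.165 RPKM (SD, n = 2 each), a log2 change of -0.50 (limma adjusted p = 0.00015), and Parp3, a PARP family gene, fell from 1.56 ± 0.175 to 0.841 ± 0.0288 RPKM (SD, n = 2 each), a log2 change of -0.62 (limma adjusted p = 0.000407). These genes lie 5613 and 6310 bases away, and Abhd14b, at 368 bases, was not called (log2 change -0.15, limma adjusted p = 0.324). Gpr62, which overlaps Pcbp4, and Gm10337, near Pcbp2, were below the filter.

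The genes whose pattern over the 4 libraries was most like that of Hnrnpk were found by the root-mean-square difference of log2 values centred on the control mean. They were Fbxl16 (difference 0.0151, from 6.03 to 1.45 RPKM), Pecr (0.0296, from 42.4 to 12.8 RPKM), Gsdmd (0.037, from 5.51 to 1.27 RPKM), Cisd3 (0.0384, from 56.1 to 17.0 RPKM) and Gpr179 (0.0431, from 1.99 to 0.263 RPKM). Pecr is an enzyme of fatty acid metabolism, Gsdmd the pore-forming protein of pyroptosis and Cisd3 a mitochondrial iron-sulfur protein. On the same measure Gm7964 was at 0.151, Pcbp4 at 0.599, Pcbp3 at 0.676, Pcbp1 at 1.23 and Pcbp2 at 1.27. With 4 libraries in 2 groups, this likeness reflects mainly the size of the change between groups.

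Other genes with a KH domain, the RNA-binding fold of the members, moved in both directions. Of 36 listed, 34 were tested, and 11 were higher, 17 lower and 6 not called. These are shares of 32.4% higher and 50.0% lower, beside 32.2% and 35.0% of all genes tested. The median log2 change was -0.14, with a range of -1.102 to 1.302, against -0.015 over all genes tested. Fewer were called without Hnrnpk siRNA replicate 1, as was the case over all genes tested. When libraries were rescaled to the same sum, 6 rather than 11 were higher, while over all genes 3600 of 13753 tested were higher, rather than 4025 of 12486. Ascc1, a subunit of a complex in transcription and repair, fell from 33.7 ± 0.816 to 15.4 ± 0.422 RPKM (SD, n = 2 each), a log2 change of -1.10 (limma adjusted p = 8.76e-07). Mex3b, which encodes an RNA-binding ubiquitin ligase, rose from 1.53 ± 0.0282 to 4.52 ± 0.0933 RPKM (SD, n = 2 each), a log2 change of 1.302 (limma adjusted p = 1.45e-06), whereas its relative Mex3d fell by 0.74 on that scale. Qk, the splicing factor Quaking, rose by a log2 change of 0.67, and Ankrd17 fell by 0.65. The FUSE-binding relatives differed: Fubp1, a regulator of Myc transcription, fell from 78.4 to 54.5 RPKM (log2 change -0.52, limma adjusted p = 0.000225), and Khsrp was at 132 and 145 RPKM (log2 change 0.14, limma adjusted p = 0.139). Among these genes no fall was larger than those of Hnrnpk and Gm7964, and 2 passed a log2 change of 1 in either direction, Ascc1 and Mex3b.

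The other hnRNP genes, which share with Hnrnpk a role in packaging and splicing of nuclear RNA rather than its KH domains, also moved in both directions. All 24 were tested, with 6 higher (25.0%, beside 32.2% of all genes tested), 8 lower (33.3%, beside 35.0%) and 10 not called, and the median log2 change was -0.002, beside -0.015 over all genes. Fewer were called lower without Hnrnpk siRNA replicate 1, and the same held over all genes tested. Hnrnpa1, a splicing repressor, fell from 33.1 and 30.9 RPKM to 14.6 and 15.7 RPKM (log2 change -1.06, limma adjusted p = 1.77e-06), and Hnrnph3 fell from 18.2 and 18.6 RPKM to 9.14 and 9.47 RPKM (log2 change -0.94, limma adjusted p = 2.59e-06). Hnrnpa0 fell by 0.42 on the log2 scale. Ptbp2, the neural paralog of the splicing repressor Ptbp1, rose from 11.6 to 17.9 RPKM in the means (log2 change 0.60, limma adjusted p = 4.19e-05), and Hnrnpa3 rose from 9.74 to 13.1 RPKM. Hnrnpl, at 141 and 135 RPKM, and Hnrnpu, at 295 and 319 RPKM, were not called (limma adjusted p = 0.424 and 0.243). Several hnRNP genes, Hnrnpa1 among them, are known for processed copies elsewhere in the genome, so their levels share the uncertainty described for Hnrnpk.

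Genes reported elsewhere as bound or controlled by hnRNP K or a PCBP, or as acting on hnRNP K, formed the third list, which like the others was drawn up with earlier results of these data known. Of 17 listed, 14 were tested, 8 were higher (57.1%, beside 32.2% of all genes tested), 4 lower (28.6%, beside 35.0%) and 2 not called, and the median log2 change was 0.50, beside -0.015 over all genes. Fewer were called lower without Hnrnpk siRNA replicate 2, as was the case over all genes tested. Cdkn1a, the cell cycle inhibitor p21, had 25.6 and 16.2 RPKM in the controls, which differed from each other, and 73.4 and 79.5 RPKM in the knockdown libraries (log2 change 1.88, limma adjusted p = 7.86e-06). Mdm2, the ubiquitin ligase that acts on p53 and has been reported to act on hnRNP K, rose from 38.8 ± 3.28 to 119 ± 2.701 RPKM (SD, n = 2 each), a log2 change of 1.61 (limma adjusted p = 1.76e-07). Dab2, an endocytic adaptor whose mRNA is reported to be held untranslated by PCBP1, rose from 1.62 to 6.42 RPKM (log2 change 1.703, limma adjusted p = 3e-07).

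RNA of both subunits of ferritin, the iron store that receives iron from PCBP proteins, was higher after the knockdown. Ferritin protein was not measured in these data. Ftl1 went from 1011 and 930 RPKM to 1964 and 2034 RPKM (log2 change 1.04, limma adjusted p = 5.56e-06), and Fth1 from 1194 and 1289 RPKM to 2338 and 2469 RPKM (log2 change 0.95, limma adjusted p = 1.18e-05). In both genes each knockdown library was above each control. The remaining higher genes of this list, named after their values were seen, were Myc, Gadd45a and Trp53. Their log2 changes were 0.607, 0.574 and 0.432 (limma adjusted p = 0.0293, 9.58e-05 and 0.00029). The Myc controls differed from each other, at 18.29 and 34.35 RPKM. The 4 genes of this list that were lower, named here after their values were seen, were Alox15, the classic target of translational silencing by hnRNP K and PCBP1, at a log2 change of -0.59, Ucp2 at -0.52, Mavs at -0.26 and Eif4e at -0.17 (limma adjusted p = 0.00035, 7.9e-05, 0.00933 and 0.0337).

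**Figure D5:**
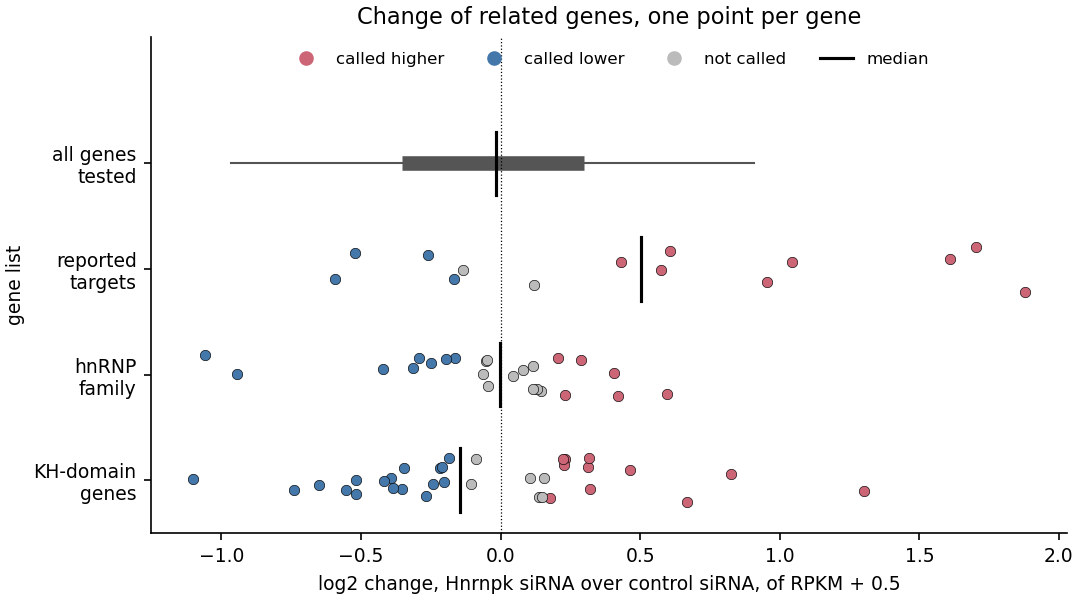
Log2 change of the tested genes of 3 lists on the horizontal axis, with 1 point per gene, red for called higher, blue for called lower and grey for not called. For all genes tested the thick bar spans the middle 50% and the thin line the middle 90%, and black ticks are medians, at 0.50 for reported targets and -0.14 for KH-domain genes.

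Markers of this and other cell types were read beside these values. Summed RPKM of 8 embryonic stem cell markers was 3651 to 3799 in the control libraries and 4464 to 4772 in the knockdown libraries. All 8 were present, with 2 higher and 2 lower, beside 32.2% and 35.0% of all genes tested. The higher sum rested on Dppa5a, which rose by 1009 RPKM from 1298 to 2308 RPKM in the means. Nanog also rose, from 197 to 347.5 RPKM, whereas Utf1 and Sox2 fell. Neural markers summed to 105 to 117 RPKM and 85.2 to 95.4 RPKM, most of it Tubb3, which had a log2 change of -0.26. All 5 tested were lower, beside 35.0% of all genes tested. Pax6, Mtap2 and Rbfox3 were near the filter, with control means of 1.01, 0.60 and 0.824 RPKM and knockdown means of 0.6375, 0.41 and 0.257 RPKM. Mtap2 and Rbfox3 thus passed the filter only through the control group, where they were higher. Fibroblast markers summed to 8.79 to 10.4 RPKM and 5.05 to 5.31 RPKM, with 5 of 8 under 0.5 RPKM in all libraries. Primitive endoderm markers went from 3.61 to 3.62 RPKM up to 24.0 to 25.0 RPKM, with 4 of 4 tested higher, beside 32.2% of all genes tested. Of these, Pdgfra, at means of 0.170 and 0.898 RPKM, passed the filter only through the knockdown group, where it was higher. Most of the rise in the sum was Gata6, which went from 0.643 to 13.9 RPKM in the means. Sox17 and Foxa2 were below the filter and were not tested. Trophectoderm markers summed to 37.04 to 46.01 RPKM and 44.6 to 44.8 RPKM. Most of that last sum was Tcfap2c, which fell from 37.9 to 28.4 RPKM in the means, while the other 3 trophectoderm markers tested rose, Eomes from 1.31 to 5.16 RPKM, Gata3 from 0.575 to 5.30 RPKM and Hand1 from 1.35 to 5.03 RPKM. No marker was at 0 in every library. The part of these cell types in the values of the members was not tested.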

How the data were processed

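RPKM values per gene, as the authors deposited them for the 4 libraries, were the only input. Per the submitters' processing notes, BWA and SAMtools were used with mm9. The sources used here do not give their versions, the counter, the annotation or the treatment of reads with several matches. Ribosomal RNA depletion and poly(A) selection are both named in the labels. RPKM are not counts, so log2(RPKM + 0.5) was tested with limma 3.58.1 (R 4.3.3, mean-variance trend, two-sided, 7.47 prior degrees of freedom) over the 12486 genes whose mean reached 0.5 RPKM, adjusted by Benjamini-Hochberg. On simulated data, in which far fewer genes were changed than were called here, 0.122% of unchanged genes were called. Of the 22138 identifiers, 92.8% were found in GENCODE M21, which gave positions on GRCm38, a different build from mm9, and sequences, compared with BLAST 2.17.0 and Biopython 1.88. Symbols are those of the table.

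The members and lists were chosen with earlier results of these data known. Rules named the 6 members, up to 5 called genes of each list by lowest p, 8 list genes whatever their values, the 5 genes most like Hnrnpk, and genes overlapping or within 10 kb of a member. Listed genes without a match were not analysed here. Alternatives were other pseudocounts, filters, scalings, limma without trend, a replicate block, leaving out each library and, added after seeing the data, removal of the GC trend.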

Additional observations from a re-analysis of the deposited data

How the results depend on the processing

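Hnrnpk, Gm7964, Pcbp3 and Pcbp4 kept their direction and their call in all 14 alternatives. The log2 change of Pcbp1, 0.01 in the report, was -0.13 after quantile normalization and -0.078 after rescaling each library to the same sum. It was 0.028 with median-ratio scaling and 0.119 with the GC trend removed, and ran from -0.002 to 0.024 when each library was left out. For Pcbp2 the log2 change was -0.07 after quantile normalization, -0.019 after rescaling, -0.029 with the GC trend removed and 0.086 with median-ratio scaling. Neither was called in any of them. Rescaling moved the median log2 change of all genes from -0.015 to -0.104, so values under it are relative to that shift, and moved the share of higher genes among all called from 47.9% to 39.1%. The joint ratio of Hnrnpk and Gm7964, 0.296, was 0.288 as a plain sum, 0.279 after rescaling and 0.284 after quantile normalization, and 0.291 to 0.302 with a library left out. With each library left out, called KH-domain genes numbered 18 to 27, those higher 6 to 10, hnRNP genes lower 5 to 7 and reported targets lower 2 to 4. Rescaling gave 6 rather than 11 higher KH-domain genes, while over all genes 3600 of 13753 tested were higher, rather than 4025 of 12486. The cause of these shifts was not tested, and where 1 library is left in a group, it is assumed to vary like the others.

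Replicate numbers are shared by the groups, and the deviations of same-numbered libraries correlated at r = 0.0267 across genes. With 2 libraries in each group this is a single comparison, so it cannot tell whether same-numbered cultures were handled together. With the replicate number as a block, the log2 change of Hnrnpk was -1.73, and 4162 genes were called higher and 4460 lower. With 2 libraries in each group, exact permutation tests could not pass 0.05.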
